A study of Mus musculus with 8 samples.

Results

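Kruppel-like factors (KLFs) were examined in bone marrow derived macrophages (BMDMs), the cells obtained when bone marrow is cultured in differentiation medium. Members were the rows of the deposited count tables with the symbols Klf2, Klf3, Klf4, Klf6, Klf7, Klf9, Klf10, Klf11 and Klf13, which gave 9 genes of 53735 listed. All 9 passed the filter on low counts, as did 14418 genes in all. The study compared WT (Mkl1+/+, Apoe-/-) with KO (Mkl1-/-, Apoe-/-) male mice, 6 months old, with 4 libraries of each genotype in 2 experiments of 2 WT and 2 KO libraries. Every mouse lacked Apoe and had received angiotensin II (Ang II) by osmotic minipump for 7 days (1.44 mg/kg/day), and the marrow cells were then differentiated for 7 days. The Mkl1 knockout was a global one, not limited to a cell type, and the libraries used here include no mice without Ang II.

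KLFs are zinc finger transcription factors that bind GC-rich and CACCC sequences, and they activate or repress genes according to the cofactors bound by their other domains. In myeloid cells, Klf2 is known as a brake on inflammatory activation, Klf4 as a factor needed for monocyte differentiation and for alternative activation, and Klf6 as an abundant early response factor. MKL1, also named MRTF-A, is a coactivator of serum response factor (SRF), which binds the CArG box.

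The promoters of 5 members are shown. Klf4, Klf9 and Klf11 had the 3 highest log2 fold changes in experiment 2, Klf7 was lower in KO in both experiments, and Klf2 is shown for its match to the MEF2 site. No window was matched for Klf10. Each window runs from 250 bases before to 50 bases after the RefSeq start site on GRCm38.p6 and is written 5′ to 3′ on the strand of the gene. Capitals mark matches, on either strand, to CACCC, to the AP-1 site TGANTCA and to the MEF2 site, which binds the MEF2 factors known to act on Klf2.
Klf2, chr8:72318812-72319111 (+ strand): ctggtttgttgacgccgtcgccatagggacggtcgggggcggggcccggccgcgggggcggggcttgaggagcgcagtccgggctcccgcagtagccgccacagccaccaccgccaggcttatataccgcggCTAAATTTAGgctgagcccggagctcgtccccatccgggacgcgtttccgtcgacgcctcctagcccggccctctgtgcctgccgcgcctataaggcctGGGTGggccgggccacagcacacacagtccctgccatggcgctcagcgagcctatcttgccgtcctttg
Klf4, chr4:55532426-55532725 (- strand): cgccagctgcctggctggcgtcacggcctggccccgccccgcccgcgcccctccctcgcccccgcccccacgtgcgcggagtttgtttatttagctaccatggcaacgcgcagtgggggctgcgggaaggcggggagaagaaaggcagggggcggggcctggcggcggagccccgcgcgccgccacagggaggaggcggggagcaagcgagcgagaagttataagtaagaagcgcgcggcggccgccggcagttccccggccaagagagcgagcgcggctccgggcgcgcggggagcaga
Klf9, chr19:23140976-23141275 (+ strand): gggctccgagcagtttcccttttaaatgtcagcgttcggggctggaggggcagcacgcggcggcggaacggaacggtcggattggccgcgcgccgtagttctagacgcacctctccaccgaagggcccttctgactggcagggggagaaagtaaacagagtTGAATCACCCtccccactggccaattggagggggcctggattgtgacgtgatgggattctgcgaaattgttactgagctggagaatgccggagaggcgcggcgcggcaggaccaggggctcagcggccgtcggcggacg
Klf11, chr12:24651121-24651420 (+ strand): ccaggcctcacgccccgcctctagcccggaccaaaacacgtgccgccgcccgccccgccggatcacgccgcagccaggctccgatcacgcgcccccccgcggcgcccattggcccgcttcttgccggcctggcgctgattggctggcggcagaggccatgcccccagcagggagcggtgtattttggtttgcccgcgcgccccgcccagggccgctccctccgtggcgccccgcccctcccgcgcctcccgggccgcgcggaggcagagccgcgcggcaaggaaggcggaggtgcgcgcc
Klf7, chr1:64121340-64121639 (- strand): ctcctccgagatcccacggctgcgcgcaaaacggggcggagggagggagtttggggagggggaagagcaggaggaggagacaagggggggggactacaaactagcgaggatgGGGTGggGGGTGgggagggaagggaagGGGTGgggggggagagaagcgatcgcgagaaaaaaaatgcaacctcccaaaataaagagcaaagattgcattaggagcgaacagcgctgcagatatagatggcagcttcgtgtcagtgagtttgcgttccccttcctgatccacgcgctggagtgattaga

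RefSeq windows were matched for 8 of the 9 members, all but Klf10. CACCC occurred in 5 of the 8, Klf2, Klf3, Klf7, Klf9 and Klf13, and in 57.5% of all 32851 windows of the same length. The window of Klf7 held 3 matches of CACCC, and that of Klf3 held 5. The MEF2 site, at position -118 from the start site of Klf2, was found in 0.557% of all windows. The AP-1 match of Klf9, at -89, overlapped its CACCC match and was of a kind found in 7.81% of windows. None of the 8 windows matched the CArG box, the CRE (TGACGTCA), the NF-κB site, the spaced palindrome ACANNNTGT of the glucocorticoid receptor or TATAAA, which occurred in 1.63%, 1.79%, 4.51%, 6.85% and 13.6% of all windows. The windows were rich in G and C, from 58.3% in Klf7 to 77.7% in Klf11, where the median of all windows was 52.7%. On GRCm38 (GENCODE M21) the genes without a printed window lie at chr5:64803388-64832901 (Klf3), chr13:5861482-5870394 (Klf6), chr15:38291463-38300706 (Klf10) and chr7:63886351-63938915 (Klf13).

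Each library held between 33977799 and 41584540 counts, and replicate libraries differed by more than counting noise (chi-square per gene between 12.3 and 80.1). Mkl1, the targeted gene, had between 25.6 and 29.6 CPM (counts of a gene scaled to a common library size) in WT and between 10.4 and 20.9 CPM in KO, so the genotypes did not overlap and the transcript was still counted in every KO library. Its log2 fold change was -0.38 in experiment 1 (adjusted p = 0.0812), which did not pass the test, and -1.17 in experiment 2 (adjusted p = 0.00173, edgeR), and which exons the deletion removed is not given in the sources used here. Over all genes tested, group means of WT in experiment 1 and KO in experiment 2 were over 2-fold apart for 395 genes (2.74%), and every other pair of groups for at least 1781 genes (12.4%). The labels were taken as given and all fold changes rest on them. Whether libraries were exchanged between the experiments was not tested. Fibroblast markers added up to 191 and 252 CPM in KO libraries 5 and 6, both of experiment 1, and to between 2.35 and 13.4 CPM in the other 6, and 7 of 8 tested fibroblast markers rose in KO of experiment 1, Col1a2 among them (log2 fold change 4.68). Macrophage markers summed to between 16750 and 37390 CPM, with 4 of 10 higher and 2 lower in KO of experiment 1 and 3 higher and 2 lower in KO of experiment 2. They did not move together, since Csf1r, the receptor for M-CSF, had log2 fold changes of 0.83 and -1.28 where Adgre1, which encodes F4/80, had -2.10 and 0.91. Adgre1 had 8328 and 7102 CPM in WT of experiment 1, 2678 and 2720 CPM in WT of experiment 2, 1929 and 1669 CPM in KO of experiment 1 and 4874 and 5264 CPM in KO of experiment 2. Endothelial markers summed to 118 and 224 CPM in WT of experiment 2, 165 and 191 CPM in KO of experiment 1, and at least 68.6 and at most 107 CPM elsewhere. Of 4 tested, Vwf was higher in KO of experiment 1 (log2 fold change 1.24), and in experiment 2 Kdr and Cdh5 were lower (-2.12 and -2.06) and Pecam1 was higher (1.62). Neutrophil markers summed to at most 1.52 CPM, lymphocyte markers to at most 2.87 CPM and dendritic markers to at most 1.48 CPM, with Cd3e at 0 in every library. The part of these differences in the results on KLFs was not tested.

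Klf6 was by far the most abundant member. Per kilobase of exon, its level was 164 ± 37.3 CPM (SD, n = 8 libraries). Klf10, a factor induced by TGF-β and also named TIEG1, followed with 15.3 ± 4.55 CPM per kilobase. The lowest library of Klf6 had 105 CPM per kilobase and the highest library of Klf10 had 21.5, so these neighbours did not overlap. Klf13 had 9.97 ± 2.33, Klf3 had 7.22 ± 1.20, Klf2 had 7.01 ± 2.01, Klf4 had 6.78 ± 4.24 and Klf7 had 4.47 ± 2.13 CPM per kilobase. Klf9 and Klf11 had the lowest means over the 8 libraries, with 1.97 ± 1.04 and 1.97 ± 0.670 CPM per kilobase. From Klf10 down, neighbours in this order overlapped across libraries. Klf6 and Klf10 kept the highest and next highest place in each of the 4 groups, while Klf4 was number 4 in WT of experiment 1 and number 7 in WT of experiment 2. Klf7 was number 4 in WT of experiment 2 and number 9, the lowest, in KO of experiment 1, with 1.70 ± 0.127 CPM per kilobase (SD, n = 2 libraries).

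**Figure D1:**
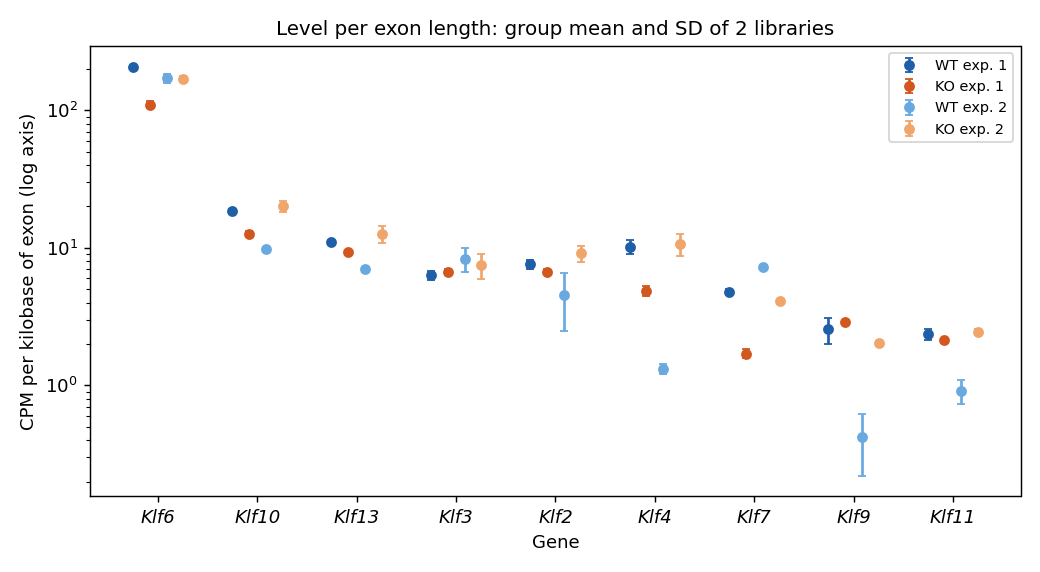
Mean level of each member per kilobase of exon (CPM per kilobase, log axis) in the 4 groups, with the SD of 2 libraries as bars. Klf6 lies above 100 CPM per kilobase in every group. The points of Klf2, Klf4, Klf9, Klf10, Klf11 and Klf13 for WT of experiment 2 lie below those of their other groups.

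The series compares KO with WT within each experiment, and this asks whether loss of Mkl1 goes with a change in these factors. In experiment 1, 4 members were lower in KO (Klf4, Klf6, Klf7 and Klf10) and 0 were higher, against 21.0% of all genes tested lower and 20.4% higher. In experiment 2, 1 member was lower (Klf7) and 6 were higher (Klf2, Klf4, Klf9, Klf10, Klf11 and Klf13), against 16.8% and 17.2% of all genes. The counts are from edgeR's quasi-likelihood test at an adjusted p under 0.05, and for the 0 higher in experiment 1 the number at an unadjusted p under 0.05 was also 0, as were the calls of DESeq2 and limma-voom. The median log2 fold change of the 9 members was -0.24 in experiment 1 and 1.01 in experiment 2, where the medians of all genes were 0.03 and 0.01. Fewer cells of a type and less RNA per cell cannot be told apart in such bulk libraries. The labels do not say that each library came from its own mouse, so the p-values measure the spread between libraries.

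The log2 fold change of KO against WT differed between the experiments for 8 of the 9 members, all but Klf3, by edgeR's interaction test. Of all genes tested, 41.6% passed that test. In all 8 the log2 fold change was larger in experiment 2, and 21.0% of all genes passed the test in that direction. Klf4 and Klf10 fell in experiment 1 and rose in experiment 2, as did 5.38% of all genes, and Klf7 was lower in both, as were 3.27% of all genes.

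**Figure D2:**
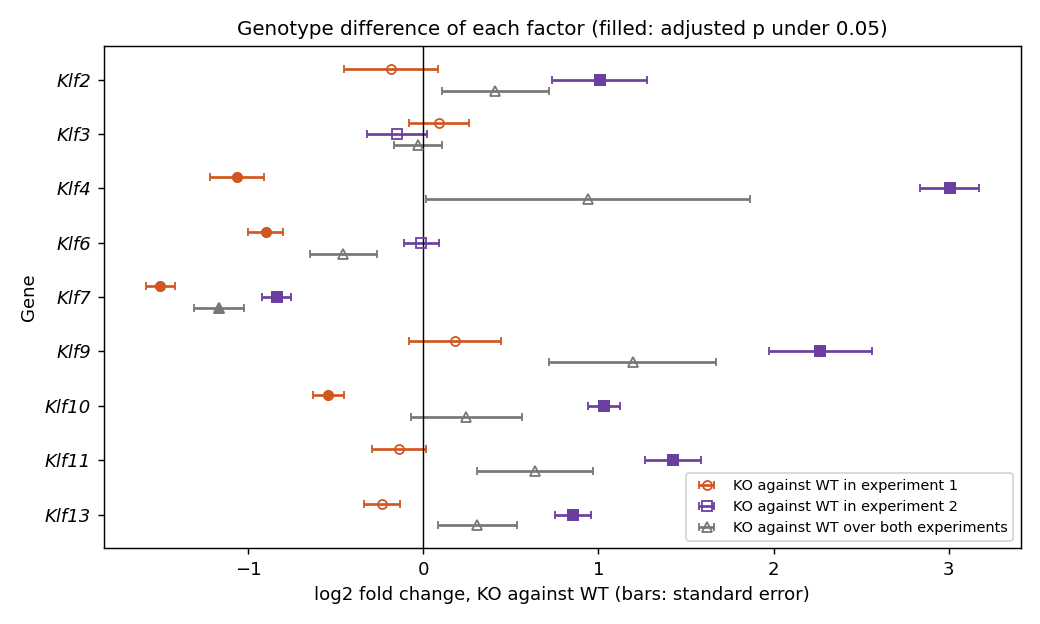
Log2 fold change of KO against WT for each member, with standard error bars, in experiment 1 (circles), in experiment 2 (squares) and over both with experiment as a term (triangles), filled where the adjusted p was under 0.05. Klf7 alone is filled for all 3 comparisons, and Klf4 runs from -1.06 in experiment 1 to 3.01 in experiment 2.

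Klf7, a factor known from neuronal development and from adipocytes, was the member that fell in KO of both experiments. Its level was 38.1 and 40.2 CPM in WT of experiment 1 and 13.1 and 14.5 CPM in KO of that experiment. In experiment 2 it was 60.4 and 58.0 CPM in WT and 32.6 and 33.7 CPM in KO. All 4 KO libraries lay below all 4 WT libraries, which among the members was so for Klf7 alone (1 of 9, against 6.25% of all genes). The level was 2.83-fold lower in experiment 1 (log2 fold change -1.50, standard error 0.09, adjusted p = 0.000112) and 1.79-fold lower in experiment 2 (-0.84, standard error 0.08, adjusted p = 0.00058). The decrease was thus larger in experiment 1 (adjusted p = 0.00419 for the interaction, edgeR). With the experiment as an additive term over all 8 libraries, Klf7 was lower in KO by 1.17 on the log2 scale (-1.17, standard error 0.14, adjusted p = 0.00749). It was the member called in that comparison (1 of 9 lower, where 3.41% of all genes were lower and 3.72% higher). The closest profiles to that of Klf7 among tested genes of mean log2 CPM 3 or more were those of Tnfrsf1b and Tnip1, which differed from it by a root mean square of 0.10 and 0.12 log2 units over the 8 libraries after each gene was centred on its mean.

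**Figure D3:**
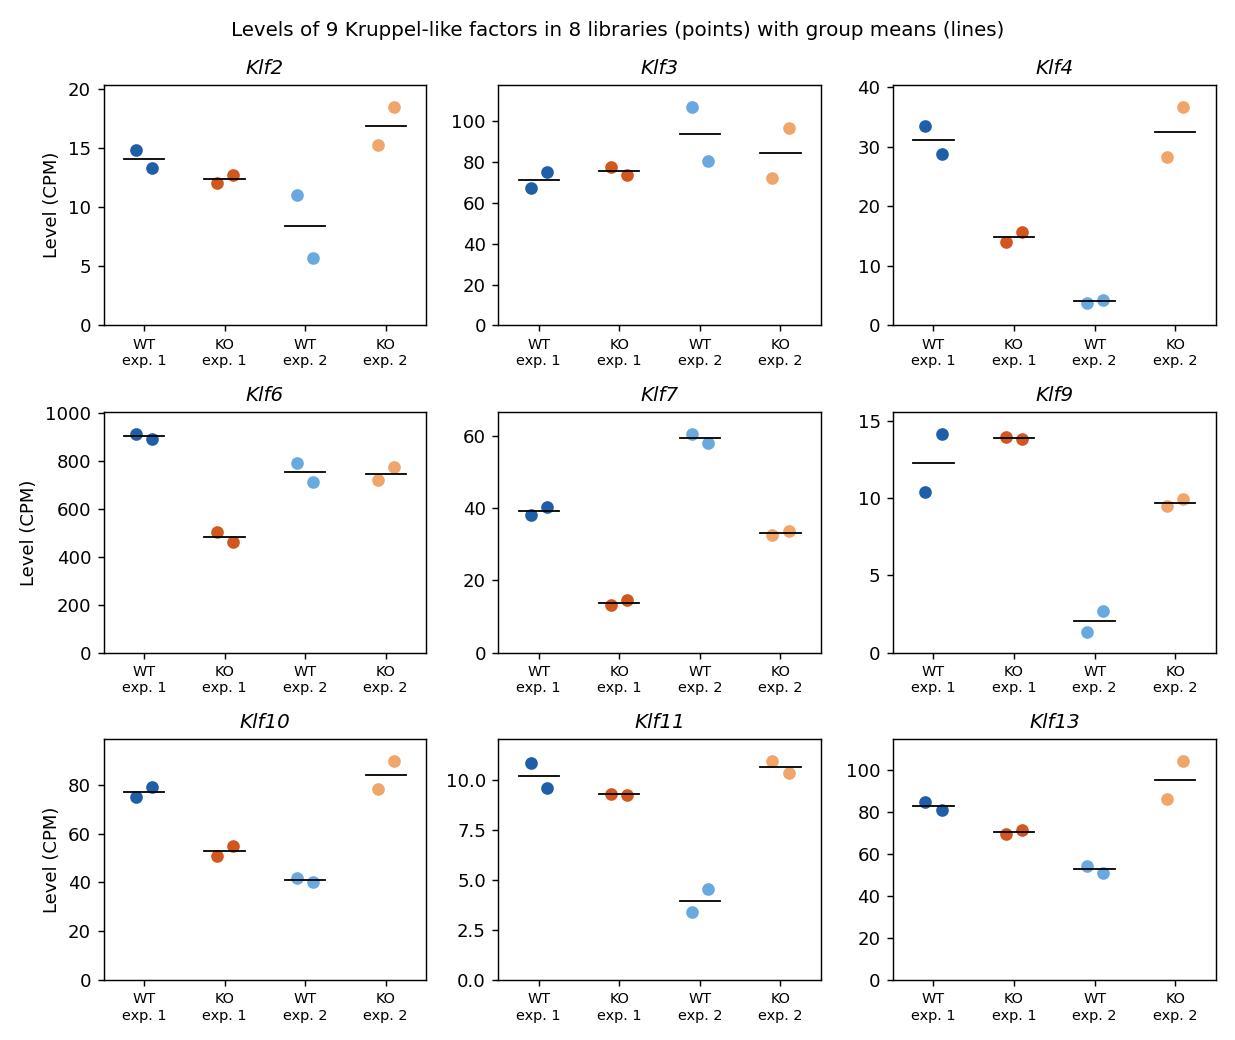
Level of each member in each library (CPM, linear axis from 0) by group, with the mean of 2 libraries as a line. Klf7 is lower in KO than in WT of the same experiment on both sides of its panel, and Klf4 is lower in KO of experiment 1 and higher in KO of experiment 2.

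Klf4 varied most between groups. It had 33.6 and 28.8 CPM in WT and 14.1 and 15.7 CPM in KO of experiment 1. In experiment 2 it had 3.81 and 4.28 CPM in WT, on 139 and 149 counts, and 28.3 and 36.7 CPM in KO. WT of experiment 2 was thus lowest of the 4 groups, WT of experiment 1 and KO of experiment 2 overlapped, and KO of experiment 1 lay between. The level in KO was 2.09-fold lower in experiment 1 (log2 fold change -1.06, standard error 0.15, adjusted p = 0.00197) and 8.03-fold higher in experiment 2 (3.01, standard error 0.17, adjusted p = 9.5e-05). The fold changes differed by 4.07 on the log2 scale (standard error 0.23, adjusted p = 9.2e-05 in the interaction test of edgeR). Over both experiments the log2 fold change was 0.94 with a standard error of 0.92 (adjusted p = 0.581, edgeR). It was 0.14 without WT library 3, 0.18 without WT library 4, 0.62 without KO library 8, 1.72 without KO library 6 and 1.76 without KO library 5.

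Klf2, the close relative of Klf4 that is known for quiescence of endothelium and T cells, had 14.9 and 13.3 CPM in WT and 12.1 and 12.8 CPM in KO of experiment 1. In experiment 2 it had 11.1 and 5.72 CPM in WT and 15.3 and 18.5 CPM in KO. The WT libraries of experiment 2 were thus far apart, though both lay below the KO libraries. The log2 fold change was -0.18 in experiment 1 (standard error 0.27, adjusted p = 0.61) and 1.01 in experiment 2 (standard error 0.27, adjusted p = 0.026). The call of Klf2 in experiment 2 was lost when WT library 2 or KO library 5, 6 or 8 was left out of edgeR's fit. The log2 fold change was then 1.01 (WT library 2), 1.03 (KO library 5), 1.01 (KO library 6) and 0.86 (KO library 8). The call was also lost with experiment 2 fitted alone (adjusted p = 0.107, edgeR). Without WT library 4 the log2 fold change fell to 0.61, and without WT library 3 it was 1.58. The interaction of Klf2 was 1.19 on the log2 scale (standard error 0.38, adjusted p = 0.04, edgeR). Its call was likewise lost without WT library 1 or 2 or KO library 5, 6 or 8. With 1 library left out, the interaction ran from 0.79 (without WT library 4) to 1.775 (without WT library 3).

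Klf6, known for its rapid induction in many cells, had 912 and 892 CPM in WT and 503 and 463 CPM in KO of experiment 1. In experiment 2 it had 792 and 711 CPM in WT and 718 and 773 CPM in KO, which overlapped. KO was lower in experiment 1 by 1.87-fold (log2 fold change -0.90, standard error 0.10, adjusted p = 0.000889). In experiment 2 the log2 fold change was -0.01 (standard error 0.10, adjusted p = 0.947). The fold changes differed between experiments by 0.89 on the log2 scale (standard error 0.14, adjusted p = 0.00277 in the interaction test of edgeR).

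The factors of the TGF-β inducible group, Klf10 and Klf11 (TIEG1 and TIEG2), repress genes through the Sin3 corepressor. Klf10 had 75.2 and 79.2 CPM in WT and 51.0 and 55.0 CPM in KO of experiment 1, and 41.9 and 40.3 CPM in WT and 78.5 and 89.7 CPM in KO of experiment 2. Its KO libraries were thus below WT in experiment 1 and above WT in experiment 2. The log2 fold change was -0.54 in experiment 1 (standard error 0.09, adjusted p = 0.00343) and 1.03 in experiment 2 (standard error 0.09, adjusted p = 0.000407), with an interaction of 1.58 (adjusted p = 0.000293, edgeR). Klf11 had 10.8 and 9.59 CPM in WT and 9.33 and 9.25 CPM in KO of experiment 1, and 3.40 and 4.54 CPM in WT and 10.96 and 10.4 CPM in KO of experiment 2. The WT libraries of experiment 2 stood below the other 6. The log2 fold change of Klf11 was -0.14 in experiment 1 (standard error 0.16, adjusted p = 0.504) and 1.43 in experiment 2 (standard error 0.16, adjusted p = 0.000986), with an interaction of 1.56 (adjusted p = 0.00186, edgeR).

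Klf9, a gene known to be induced by glucocorticoid and thyroid hormone, had 10.4 and 14.2 CPM in WT and 14.0 and 13.8 CPM in KO of experiment 1. In experiment 2 it had 1.343 and 2.703 CPM in WT, on 49 and 94 counts, and 9.49 and 9.95 CPM in KO. As with Klf2, Klf4, Klf10, Klf11 and Klf13, both WT libraries of experiment 2 lay below all other libraries. KO was 4.81-fold higher than WT in experiment 2 (log2 fold change 2.27, standard error 0.30, adjusted p = 0.00163), and the log2 value was 2.85 without WT library 4 and 1.87 without WT library 3. In experiment 1 the genotypes overlapped (0.18, standard error 0.26, adjusted p = 0.613), and the interaction was 2.09 (standard error 0.39, adjusted p = 0.00544, edgeR), with values from 1.70 to 2.67 when 1 library was left out.

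Klf13, known as RFLAT-1 for its action on Ccl5 in T cells, had 84.7 and 80.6 CPM in WT and 69.2 and 71.1 CPM in KO of experiment 1, and 54.2 and 50.9 CPM in WT and 85.8 and 104 CPM in KO of experiment 2. The log2 fold change was 0.85 in experiment 2 (standard error 0.10, adjusted p = 0.00123) and -0.24 in experiment 1 (standard error 0.10, adjusted p = 0.0998). In experiment 1 KO lay below WT without overlap, as it also did for Klf2 and Klf11, which were not called there. The adjusted p of Klf13 was 0.00781 with that experiment fitted alone (edgeR). It did not pass with limma-voom (0.102), DESeq2 (0.127), upper-quartile scaling (0.261, edgeR) or the other filters (0.0966 and 0.112, edgeR). Omitting any single library kept its change in experiment 1 between -0.27 and -0.21 on the log2 scale. The interaction of Klf13 was 1.09 (standard error 0.14, adjusted p = 0.00141).

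Klf3, a repressor that recruits CtBP, was the member with no call. It had 67.2 and 75.0 CPM in WT and 77.7 and 73.5 CPM in KO of experiment 1, and 107 and 80.5 CPM in WT and 72.2 and 96.6 CPM in KO of experiment 2. Genotypes overlapped in both experiments. The log2 fold change was 0.09 in experiment 1 (standard error 0.17, adjusted p = 0.703) and -0.15 in experiment 2 (standard error 0.17, adjusted p = 0.526), with an interaction of -0.24 (standard error 0.24, adjusted p = 0.454, edgeR).

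Across the 4 groups, 5 members shared the same order of group means, as did 5.82% of all genes, with WT of experiment 2 lowest, then KO of experiment 1, then WT of experiment 1 and KO of experiment 2 highest. These were Klf2, Klf4, Klf10, Klf11 and Klf13, and in Klf4, Klf10 and Klf11 the libraries of the 2 highest groups overlapped. Klf9 was also lowest in WT of experiment 2, as were 30.5% of all genes, while Klf6 and Klf7 were lowest in KO of experiment 1, as were 31.8%. WT of experiment 1 and KO of experiment 2 differed in the members by a root mean square of 0.21 log2 units, and 0 of the 9 were over 2-fold apart, against 2.74% of all genes. Between WT and KO of experiment 2 the root mean square was 1.49, with 5 members over 2-fold apart against 14.6% of all genes, and between the WT groups of the 2 experiments it was 1.49, with 3 members over 2-fold apart against 13.7% of all genes. The SD of the same differences over all genes was 0.41, 0.86 and 0.84 log2 units. Klf10 and Klf13 had the most similar profiles of any pair of members (root mean square 0.13), and Klf7 and Klf9 the least (1.80).

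**Figure D4:**
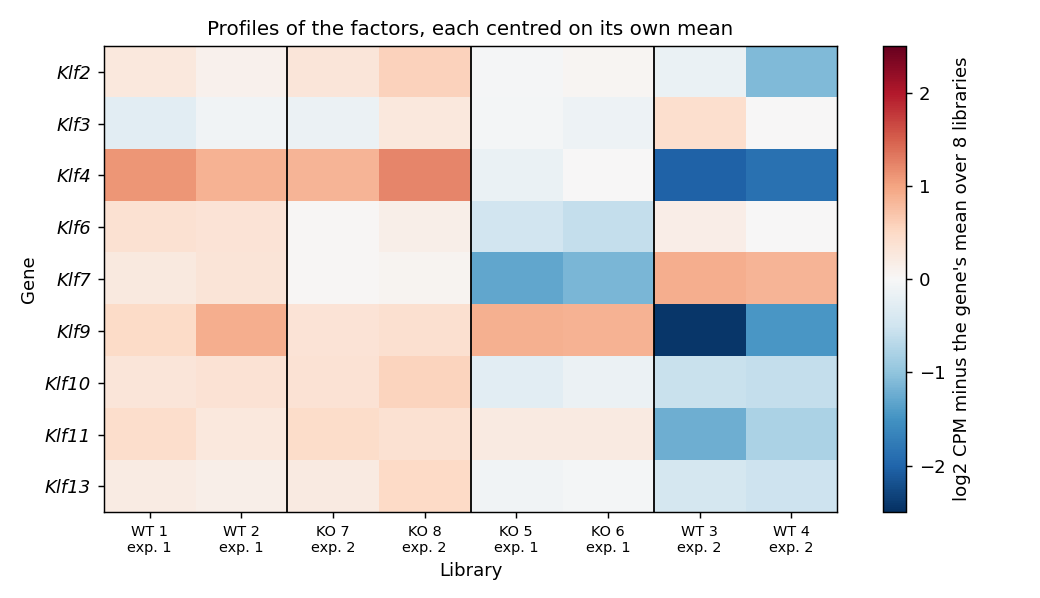
Log2 CPM of each member minus its mean over the 8 libraries, with libraries (columns) set in groups: WT of experiment 1, KO of experiment 2, KO of experiment 1 and WT of experiment 2. Klf2, Klf4, Klf9, Klf10, Klf11 and Klf13 are lowest in WT libraries 3 and 4, and Klf7 is lowest in KO libraries 5 and 6.

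The nearest profiles among tested genes of mean log2 CPM 3 or more were Dcun1d4 and Utp14b for Klf2 (both 0.15 log2 units), Bri3 and Mafk for Klf3 (0.06 and 0.07), Fgf11 and Ptger2 for Klf4 (0.35 and 0.35) and Pik3ap1 and Cldnd1 for Klf6 (0.07 and 0.07). For Klf9 they were Cebpa and Cd5l (0.30 and 0.32), for Klf10 Bahd1 and Fyn (0.07 and 0.08), for Klf11 Tmem65 (0.08) and for Klf13 Rev3l and Gtpbp8 (both 0.06). These distances describe 8 libraries that fall into 4 groups.

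The 9 members are the KLFs named in the rule, and of 8 other KLF genes listed in the files 2 were tested. Klf16 had 13.1 and 12.4 CPM in WT and 8.28 and 10.2 CPM in KO of experiment 1, and 7.95 and 7.45 CPM in WT and 11.6 and 12.4 CPM in KO of experiment 2. Like Klf4 and Klf10, it was lower in KO of experiment 1 (log2 fold change -0.47, adjusted p = 0.0258) and higher in KO of experiment 2 (0.65, adjusted p = 0.00916, edgeR). Klf8, with levels between 8.00 and 10.3 CPM, had log2 fold changes of -0.13 and 0.14 that did not pass the test (adjusted p = 0.51 and 0.494, edgeR). Klf1, Klf5, Klf12, Klf15 and Klf17 had at most 19 counts in any library, and Klf14 had 0 counts in each, which allows at most 0.0719 to 0.088 CPM (3 counts, counting error only). Of 9 Sp genes, the relatives of KLFs, 4 were tested. Sp4 was higher in experiment 1 (0.58, adjusted p = 0.0115) and over both experiments (0.47, adjusted p = 0.0484, edgeR), and no other Sp gene was called.

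The counts over gene lists that follow stand beside 20.4% of all genes higher and 21.0% lower in KO of experiment 1, and 17.2% higher and 16.8% lower in KO of experiment 2. Genes known to act on Klf2 and Klf4 were examined as a list of 6, all tested. In experiment 1, 2 were lower and 1 was higher in KO, and in experiment 2, 4 were higher and 0 lower (edgeR; 0 lower also at an unadjusted p under 0.05), with median log2 fold changes of 0.05 and 0.61. The counts of experiment 1 are near those shares of all genes. Mapk7, which encodes the kinase ERK5, fell in experiment 1 and rose in experiment 2 (log2 fold changes -0.52 and 0.63, adjusted p = 0.00945 and 0.00561, edgeR). Mef2d, a target of that kinase, had -0.23 and 0.89 (adjusted p = 0.0484 and 0.000394), Mef2a had -0.16 and 0.84 (adjusted p = 0.271 and 0.0016), and Mef2c rose by 1.64 in experiment 1 (adjusted p = 0.00117). Among 10 known targets of KLF2, KLF4 or KLF6, 8 were tested, with 1 higher and 2 lower in experiment 1 and 2 higher and 3 lower in experiment 2 (medians -0.27 and -0.22). Those of experiment 1 are near the shares of all genes. Thbd, which encodes the anticoagulant receptor thrombomodulin and is induced by KLF2, had 26.8 and 39.9 CPM in WT and 26.5 and 26.2 CPM in KO of experiment 1, and 5.26 and 4.05 CPM in WT and 20.0 and 20.5 CPM in KO of experiment 2. It rose by 2.12 on the log2 scale in KO of experiment 2 (adjusted p = 0.000562, edgeR), with -0.34 in experiment 1 (adjusted p = 0.184). S1pr1, a receptor for sphingosine-1-phosphate and a target of KLF2, was higher in both experiments (1.15 and 0.78, adjusted p = 0.00553 and 0.0297, edgeR). Zc3h12a, which encodes the RNase MCPIP1 and is induced by KLF4, was lower in both (-1.78 and -0.74, adjusted p = 9.7e-05 and 0.00123, edgeR). Cdkn1a, which encodes the cell cycle inhibitor p21 and is induced by KLF4 and KLF6, was also lower in both (-0.90 and -0.68, adjusted p = 0.00203 and 0.00679). Cd14, the lipopolysaccharide coreceptor, was lower in experiment 2 (-1.48, adjusted p = 0.00564), with -0.15 in experiment 1 (adjusted p = 0.68, edgeR).

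Glucocorticoid-responsive genes were set beside Klf9 as a list of 7, all tested, and 21.0% of all genes were lower in experiment 1 and 17.2% higher in experiment 2. Of the 7, 3 were lower and 0 higher in KO of experiment 1, and 3 were higher and 0 lower in KO of experiment 2 by edgeR's test (at an unadjusted p under 0.05, 1 was higher in experiment 1 and 0 were lower in experiment 2). The medians of this list were -0.27 and 0.22. Tsc22d3, which encodes GILZ, had 109 and 123 CPM in WT and 102 and 90.2 CPM in KO of experiment 1, and 37.1 and 32.2 CPM in WT and 116 and 148 CPM in KO of experiment 2. It rose by 1.93 on the log2 scale in experiment 2 (adjusted p = 0.00023, edgeR), with -0.27 in experiment 1 (adjusted p = 0.149). Zbtb16, a zinc finger repressor, rose by 2.20 in experiment 2 (adjusted p = 0.0039), with 0.85 in experiment 1 (adjusted p = 0.0618, edgeR). Its levels in experiment 2 were low, with 0.41 and 0.86 CPM in WT and 3.54 and 2.33 CPM in KO. Per1, a clock gene, rose by 0.64 in experiment 2 (adjusted p = 0.0448, edgeR). The 3 genes that fell in experiment 1 were Dusp1, a phosphatase of MAP kinases (-1.88, adjusted p = 0.00108), Sgk1, a kinase (-0.77, adjusted p = 0.00158), and Fkbp5, a chaperone of the glucocorticoid receptor (-0.80, adjusted p = 0.00618). In experiment 2 these had 0.10, 0.07 and -0.34, with adjusted p of 0.749, 0.644 and 0.129 (edgeR). Klf2, Klf4, Klf6 and Klf10 are also known as immediate early genes, and of 12 others 11 were tested. Of these, 7 were lower and 0 higher in KO of experiment 1 (edgeR; 0 also at an unadjusted p under 0.05), and 4 were higher and 4 lower in KO of experiment 2 (medians -0.73 and -0.14), beside the same shares of all genes. Atf3, a factor of the stress response, had -1.43 and 0.89 (adjusted p = 0.000121 and 0.000616, edgeR), in the same directions as Klf4 and Klf10, as did Jun (-0.51 and 0.87, adjusted p = 0.0314 and 0.00489) and Nr4a1 (-1.03 and 1.03, adjusted p = 0.00516 and 0.00665). Fos fell by 1.75 on the log2 scale in experiment 1 (adjusted p = 0.000211), with -0.35 in experiment 2 (adjusted p = 0.0604, edgeR), while Junb was lower in both experiments (-0.71 and -1.29, adjusted p = 0.00265 and 0.000373), as was Klf7.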

How the data were processed

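RNA-seq had been run on BMDMs of 4 WT and 4 KO libraries, and genotype, number and experiment were taken from the sample labels. The authors deposited raw counts per gene symbol, which are whole numbers, and normalized counts, which were not used here because their size factors were set within each experiment. The submitters' processing notes name STAR 2.7.0f, Subread 1.6.4 with featureCounts, DESeq2 1.22.1 and GRCm38. Annotation release and strand setting of the counting are not given in the sources used here, so reads of antisense genes that overlap Klf3, Klf7 and Klf13 cannot be told apart.

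Both count tables were joined by symbol. Counts were tested with edgeR 4.0.16 in R 4.3.3 (filterByExpr by genotype, TMM, robust quasi-likelihood fit of 4 group means over 8 libraries, with contrasts within each experiment and their difference) and with an additive fit of experiment plus genotype. Adjusted p is Benjamini-Hochberg over the 14418 genes tested. Each standard error was derived from the fold change and its F statistic (log2 fold change over root F). Log2 CPM used a prior count of 2. Exon lengths were taken from GENCODE M21 by symbol and promoters from RefSeq. The total of 33977799 to 41584540 counts per library left at least 49 counts for a member in any library.

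All members are named, with up to 3 genes of each other list in each direction by smallest p, and the 2 nearest profiles of each member. Some genes under this rule are not reported here. Col1a2, Cd3e, Smurf1 and Btrc were named after their values were seen. Members and lists were chosen with earlier results of these data known. Alternatives were DESeq2 1.42.0, limma-voom (limma 3.58.1), upper-quartile scaling, other filters, each experiment alone, no experiment term, a mean of contrasts, an adjusted p under 0.01 and each library left out. The fits were tested on simulated data. Figures used matplotlib 3.10.9.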

Additional observations from a re-analysis of the deposited data

Results flagged for a closer look

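By edgeR's interaction test, the log2 fold change of KO against WT differed between experiments 1 and 2 for 8 members. Of all genes, 41.6% passed that test and 21.0% passed it with the larger value in experiment 2. The log2 fold change in experiment 2 exceeded that in experiment 1 by 4.07 for Klf4, 2.09 for Klf9, 1.58 for Klf10, 1.56 for Klf11, 1.19 for Klf2, 1.09 for Klf13, 0.89 for Klf6 and 0.66 for Klf7. In Klf7 the sign was the same in both experiments, in Klf4 and Klf10 both signs passed the test in opposite directions, and in the other 5 the change passed the test in 1 experiment. The experiments also differed in fibroblast markers, which added up to 191 and 252 CPM in KO libraries 5 and 6 and to at most 13.4 CPM elsewhere, and the part of this in the results on KLFs was not tested.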

How the results depend on the processing

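The counts of members called within each experiment and in the interaction stayed within 1.5 times their value under every alternative run for them, and leaving out 1 library gave 4 to 5 in experiment 1, 6 to 7 in experiment 2 and 7 to 8 in the interaction. Over both experiments the 1 member called became 2 with DESeq2 (Klf9 beside Klf7, of 2492 genes called), 0 without the experiment term (edgeR; 1 member at an unadjusted p under 0.05, and 4 of all genes called) and 7 for the mean of the within-experiment contrasts, whose spread leaves out the difference between experiments. Of the member values, 478 kept direction and call, 12 lost the call, 10 gained it and 13 changed sign. The changes of sign were all in values that did not pass the test. Klf6 in experiment 2 turned to 0.043 with upper-quartile scaling and to 0.013 with at least 10 counts in every library, and Klf3 over both experiments turned to 0.040 with upper-quartile scaling. That scaling moved the median of all genes alike, from 0.0068 to 0.059 in experiment 2 and from 0.0043 to 0.075 over both, and the filter moved it to 0.028 in experiment 2. With 1 library left out, Klf6 in experiment 2 ran from -0.087 to 0.090, Klf9 in experiment 1 from -0.035 to 0.42, and Klf3 from -0.38 to 0.089 in experiment 2, from -0.47 to 0.0089 in the interaction and from -0.094 to 0.083 over both. Without both KO libraries of experiment 1, an alternative chosen after seeing the data, 6 members were called in experiment 2 and Klf2 was not (adjusted p = 0.0566). The cause of these changes was not tested. With 2 libraries in a group the spread is poorly known. No paired analysis was possible because WT and KO libraries share no number.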

Other observations

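Cofactors and degradation of KLF proteins were not part of the comparison of the members themselves. Among 4 genes for ubiquitin ligases that act on KLF proteins, all tested, Wwp1 was higher in KO of both experiments (log2 fold change 0.98 and 0.93, adjusted p = 0.00201 and 0.00272), and so was Fbxw7 (0.36 and 0.55, adjusted p = 0.0368 and 0.00956, edgeR). Neither gene had a difference between experiments that passed the test (adjusted p = 0.875 and 0.383). Smurf1 and Btrc did not pass it in either experiment. Of 9 corepressor and coactivator genes, 1 was higher and 2 were lower in experiment 1, and 3 were higher and 1 was lower in experiment 2. Of all genes, 20.4% were higher and 21.0% lower in experiment 1 and 17.2% and 16.8% in experiment 2, so the counts of experiment 1 are near or below those shares. Ctbp2, which encodes a partner of KLF3, had -0.30 and 0.36 (adjusted p = 0.0308 and 0.0196, edgeR), and Hdac2, a histone deacetylase, had -0.69 and -0.22 (adjusted p = 0.00133 and 0.085, edgeR). Hdac1 was lower in experiment 2 (-0.63, adjusted p = 0.0126), Crebbp, an acetyltransferase, was higher in experiment 2 (0.37, adjusted p = 0.0168), and its relative Ep300 was higher in experiment 1 (0.37, adjusted p = 0.0233, edgeR).

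Of 9 genes of TGF-β signalling, 2 were higher and 3 lower in KO of experiment 1 and 4 higher and 2 lower in experiment 2, beside those same shares of all genes. Smad3, which carries the TGF-β signal to the nucleus, had -0.78 and 1.74 (adjusted p = 0.00535 and 0.000394, edgeR). Smad2 was lower in experiment 1 (-0.44, adjusted p = 0.00438, edgeR). Skil, a repressor of SMAD proteins, was lower in both experiments (-1.51 and -0.65, adjusted p = 0.000111 and 0.00154, edgeR), and Tgfbr2, a receptor of TGF-β, was higher in both (1.05 and 0.50, adjusted p = 0.00271 and 0.0473, edgeR).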
